A study of Mus musculus with 16 samples.

Results

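The genes described here are the Hox genes of the 4 mammalian clusters and the homeodomain cofactors of the TALE class (Meis, Pbx and Tgif) in cultured mouse aortic smooth muscle cells. They were taken by gene symbol, and 37 of the 20581 genes in the deposited table matched: 28 Hox genes and 9 TALE genes. The cells came from the aortas of male C57BL/6J mice, and each genotype was cultured in 2 media, with 4 libraries for each of the 4 groups. KO cells came from RBC.ARG1-KO mice, in which an ErCre transgene (Cre under the erythropoietin receptor gene) deletes floxed Arg1 in the red blood cell lineage, and WT cells came from RBC.ARG1-WT littermates. The Cre is not directed at smooth muscle, so any genotype difference in these cells was measured after culture away from the red blood cells. DIAM is DMEM with a glucocorticoid (dexamethasone, 0.1 µM), L-ascorbic acid (50 µg/mL) and insulin (1 µM), given for 10 days to make the cells store lipid, and the DMEM groups were kept in DMEM with 10% fetal bovine serum. The labels do not say whether DIAM contained serum, so its 3 additives, and serum if it differed, cannot be told apart. The series counts 4 biological replicates, and whether each library is a separate animal is not stated, so p-values measure the spread between these libraries.

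Hox genes encode homeodomain transcription factors that lie in clusters in the order in which they are used along the body axis, low numbers anteriorly and high numbers posteriorly. Adult smooth muscle cells and fibroblasts retain part of this code, and cells from different stretches of the vascular tree differ in it. Hox proteins bind DNA weakly alone and gain specificity by pairing with Pbx and Meis proteins, while Tgif proteins are TALE repressors that compete for Meis-type sites and act as corepressors of retinoid and TGF-beta/SMAD signalling. The comparisons below ask how this positional set stood in the aortic cells and whether DIAM or the donor's genotype changed it.

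Depth was similar across the study, with 37221313 to 47626242 estimated counts per library. Levels are CPM, counts scaled to the TMM-adjusted library size, and 32 of the 37 members reached 1 CPM in at least 4 of the 16 libraries and were tested (23 Hox and 9 TALE genes). Arg1, the deleted gene, was near its detection limit in the cultured cells: it had 1 to 4 counts in KO DIAM libraries, 0 to 9 in WT DIAM libraries, 2 to 49 in KO DMEM libraries and 3 to 4 in WT DMEM libraries, and so gave no check of the genotype. The smooth muscle label was set against 10 defining markers, all of which had reads. Acta2, the smooth muscle actin, averaged 845 ± 227 CPM in KO DIAM cells, 772 ± 167 CPM in WT DIAM cells, 1799 ± 541 CPM in KO DMEM cells and 1960.3 ± 247 CPM in WT DMEM cells (SD, n = 4 each). It was picked after its values were seen and does not stand for all 10 markers. Their median log2 fold change of DIAM over DMEM was -0.0 in KO cells and -0.13 in WT cells.

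The aortic cells expressed a broad trunk Hox code from the HOXA, HOXB and HOXC clusters and almost nothing from HOXD. To compare genes with each other, CPM was divided by exon length in kilobases (CPM per kb). By that level Hoxc6, a gene of the lower neck and upper thorax, stood first in all 4 groups, with 20.5 ± 1.78 in KO DIAM cells, 19.0 ± 1.26 in WT DIAM cells, 29.1 ± 2.26 in KO DMEM cells and 30.1 ± 1.27 CPM per kb in WT DMEM cells (SD, n = 4 each). Hoxc8, a thoracic patterning gene, had rank 2 and Hoxa7 rank 3 in every group. In KO DIAM cells these neighbours, at 13.5 ± 0.909 and 13.5 ± 0.852 CPM per kb, did not differ beyond their spread. Nor did they in WT DIAM cells, at 12.6 ± 1.28 and 11.6 ± 0.510 CPM per kb. Hoxb9, a gene of the lower thorax, had rank 4 in both DMEM groups (15.9 ± 1.35 CPM per kb in KO cells and 17.9 ± 1.87 in WT cells). In KO DMEM cells Hoxb7, at 15.7 ± 1.42 CPM per kb, did not differ from it beyond the spread. In DIAM the mean level of Hoxb9 was 5.17 CPM per kb in KO cells and 5.86 CPM per kb in WT cells. These were rank 9 and rank 8 of the 23 tested Hox genes. In KO DIAM cells Hoxb9 (SD 0.652), Hoxb8 (5.58 ± 0.307) and Hoxb4 (5.12 ± 0.311) did not differ beyond their spread. The rank correlation of the 23 levels was otherwise high between media (Spearman's rho 0.967 in KO cells and 0.967 in WT cells) and between genotypes (0.990 in DIAM and 0.999 in DMEM). These are descriptions across genes that share libraries and gene lengths.

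The code faded beyond number 9. Hoxa10 had 1 to 20 counts per library, Hoxc10 had 2 to 24, and Hoxd10 had 0 to 5. Hoxd10 was not detected in KO DIAM replicate 3, where a count of 0 allows up to 0.0801 CPM, nor in WT DIAM replicate 3, where it allows up to 0.0756 CPM (counting error only). These 3 genes, with Hoxd4 at 1 to 16 counts and Hoxd9 at 4 to 15 counts, were below the filter and were not tested. Hoxc13, a gene of skin and hair, was the single member above number 10 with a row, and it held a low level of 0.535 ± 0.0244 CPM per kb in KO DIAM cells, 0.478 ± 0.203 in WT DIAM cells, 1.01 ± 0.474 in KO DMEM cells and 1.01 ± 0.163 in WT DMEM cells (SD, n = 4 each). Hoxd8 was the only HOXD gene tested, and it averaged 0.408 CPM per kb in KO DIAM cells, 0.425 in WT DIAM cells, 0.292 in KO DMEM cells and 0.302 in WT DMEM cells. Another 11 Hox names of the mouse annotation had no row and were not analysed here: Hoxa11, Hoxa13, Hoxb1, Hoxb13, Hoxc11, Hoxc12, Hoxd1, Hoxd3, Hoxd11, Hoxd12 and Hoxd13.

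**Figure D1:**
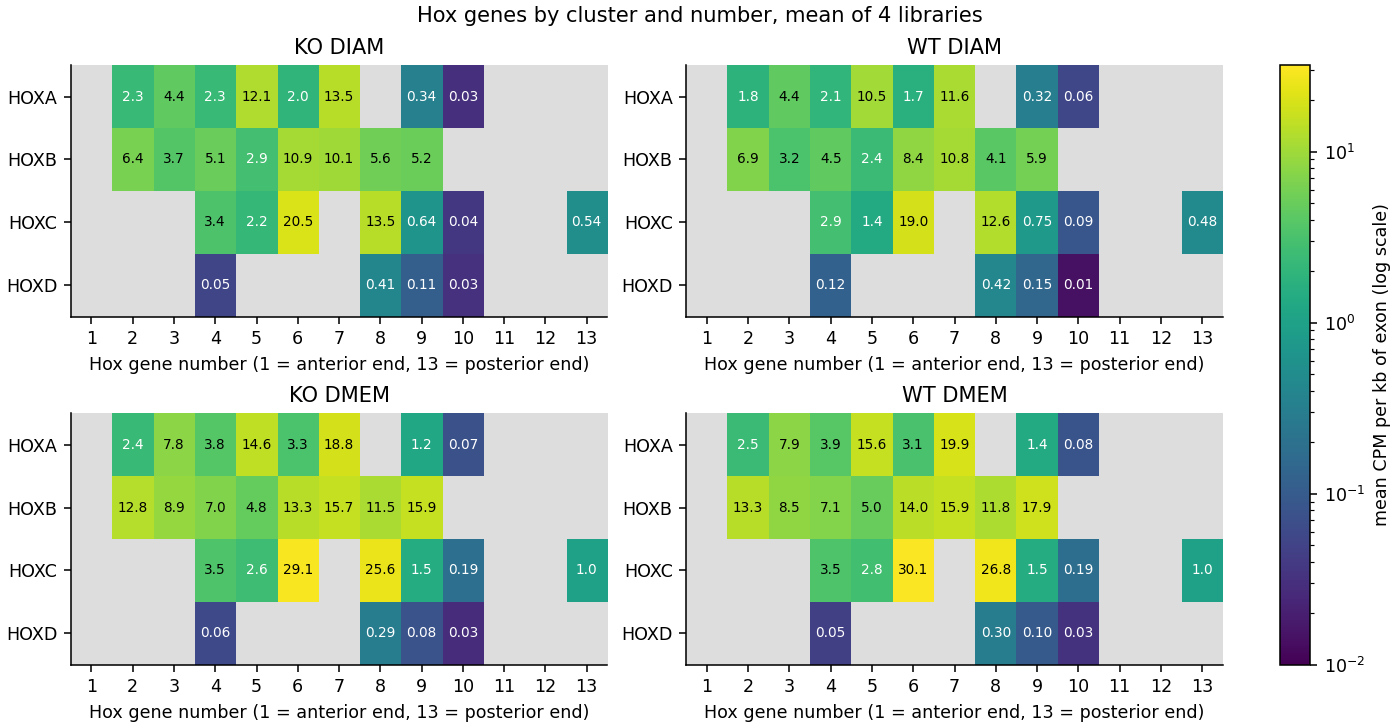
Mean level of each Hox gene (CPM per kb of exon, colour on a log scale, n = 4 libraries) by cluster (rows) and gene number (columns) in the 4 groups. Grey fields are numbers that the mouse cluster lacks or that are not shown here. Every HOXB gene numbered 2 to 9 stood above 2 CPM per kb in all 4 groups, Hoxc6 was the highest gene, and the HOXD row stayed under 0.5 CPM per kb in all 4 groups.

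The 250 bases before the annotated start are printed for 3 genes that mark the range of the responses: Hoxa9 with the largest fall in DIAM, Hoxb8 with a fall and a genotype difference, and Hoxa2 with a small difference in either genotype. They are RefSeq sequence of build GRCm38.p6, read 5′ to 3′ on the gene's strand. Capitals mark matches on either strand to the Pbx-Hox site TGATNNAT, the Meis core TGACAG or the glucocorticoid receptor hexamer AGAACA.
Hoxa9 (chr6:52227371-52227620, minus strand): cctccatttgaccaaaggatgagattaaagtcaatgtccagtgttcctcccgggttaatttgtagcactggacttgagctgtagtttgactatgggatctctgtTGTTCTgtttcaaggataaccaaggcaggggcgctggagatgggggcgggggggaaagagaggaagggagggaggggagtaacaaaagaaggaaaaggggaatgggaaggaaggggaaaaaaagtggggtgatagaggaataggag
Hoxb8 (chr11:96281655-96281904, plus strand): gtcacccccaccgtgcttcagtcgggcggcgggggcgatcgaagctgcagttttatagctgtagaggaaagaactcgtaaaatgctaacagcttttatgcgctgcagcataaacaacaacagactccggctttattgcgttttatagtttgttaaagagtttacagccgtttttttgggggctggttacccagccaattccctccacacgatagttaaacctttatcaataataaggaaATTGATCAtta
Hoxa2 (chr6:52164832-52165081, minus strand): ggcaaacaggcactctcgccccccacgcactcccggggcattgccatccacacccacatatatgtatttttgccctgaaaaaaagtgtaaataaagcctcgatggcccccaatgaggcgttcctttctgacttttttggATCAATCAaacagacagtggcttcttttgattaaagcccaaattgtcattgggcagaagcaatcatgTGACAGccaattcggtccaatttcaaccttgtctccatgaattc
The Hoxa9 window held 1 receptor hexamer, the Hoxb8 window 1 Pbx-Hox match, and the Hoxa2 window 1 Pbx-Hox match and 1 Meis core. RefSeq had 26 windows of 300 bases for 21 of the 37 members, and 3 of the 26 held the Pbx-Hox letters, 4 the Meis core and 2 the receptor hexamer. Among all 32851 mouse windows these letters occurred in 8.85%, 19.2% and 19.0%. A match describes letters in a window and shows no binding.

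Nearly the whole expressed Hox code was lower in DIAM in both genotypes. Of the 23 tested Hox genes, 19 fell in KO cells and 22 fell in WT cells (edgeR quasi-likelihood test, adjusted p under 0.05 over all 14217 genes tested), and none rose in either. With the TALE genes, 24 of 32 members fell in KO cells, where 30.8% of all genes tested fell, and 26 of 32 fell in WT cells, where 27.5% of all genes fell. The members that rose were Meis2 in KO cells (29.8% of all genes rose) and Meis2 and Pbx4 in WT cells (27.6% of all genes rose). The median log2 fold change of the Hox genes was -0.72 in KO cells and -0.91 in WT cells, beside -0.02 and -0.01 over all genes. In KO cells 23 members had every DIAM library below every DMEM library, which held for 27.8% of all genes, and in WT cells 26 did, beside 24.7% of all genes. In both genotypes 24 members passed the test, 23 lower in DIAM and Meis2 higher. The share of all genes called in both genotypes was not counted, so this number has no background beside it. Among the 17 tested Hox genes that share at most 10% of their exon bases with another gene, 14 fell in KO cells and 16 in WT cells. In a bulk sample fewer cells that express a gene and less of its RNA per cell cannot be told apart.

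The fall showed in the summed level of all 28 Hox genes, in which no DIAM library reached a DMEM library. The sum was 259, 267, 270.4 and 252 CPM in KO DIAM libraries, against 431, 397, 469 and 421 CPM in KO DMEM libraries. In WT cells it was 230.3, 218, 249.98 and 247 CPM in DIAM, against 437, 459, 464 and 428 CPM in DMEM. The clusters took unequal parts in it. Summed per kb, HOXB made up 38.6% ± 1.00 of the Hox total in KO DIAM cells and 39.2% ± 0.232 in WT DIAM cells, against 43.3% ± 1.12 in KO DMEM cells and 43.4% ± 0.669 in WT DMEM cells (SD, n = 4 each). HOXA made up 29.4% ± 0.645 and 28.5% ± 0.881 in KO and WT cells in DIAM, against 25.7% ± 0.207 and 25.9% ± 1.10 in DMEM. The HOXC share lay between 29.6% and 33.0% in every library. The median log2 fold change was -1.42 in KO cells and -1.35 in WT cells for the 4 tested genes numbered 9 to 13, against -0.51 and -0.78 for the 11 numbered 5 to 8, and -0.62 and -0.76 for the 8 numbered 1 to 4.

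**Figure D2:**
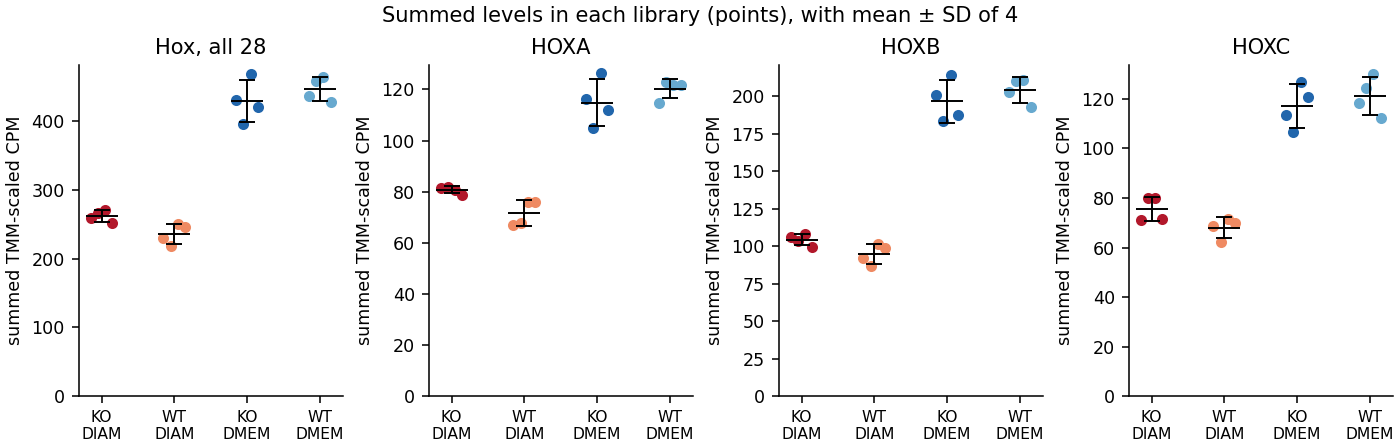
Summed level (TMM-scaled CPM, axis from 0) of all 28 Hox genes and of the HOXA, HOXB and HOXC clusters, one point per library with the mean and SD of 4. Every DIAM library lay below every DMEM library in each panel, with Hox sums up to 270.4 CPM in DIAM and from 397 CPM in DMEM.

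**Figure D3:**
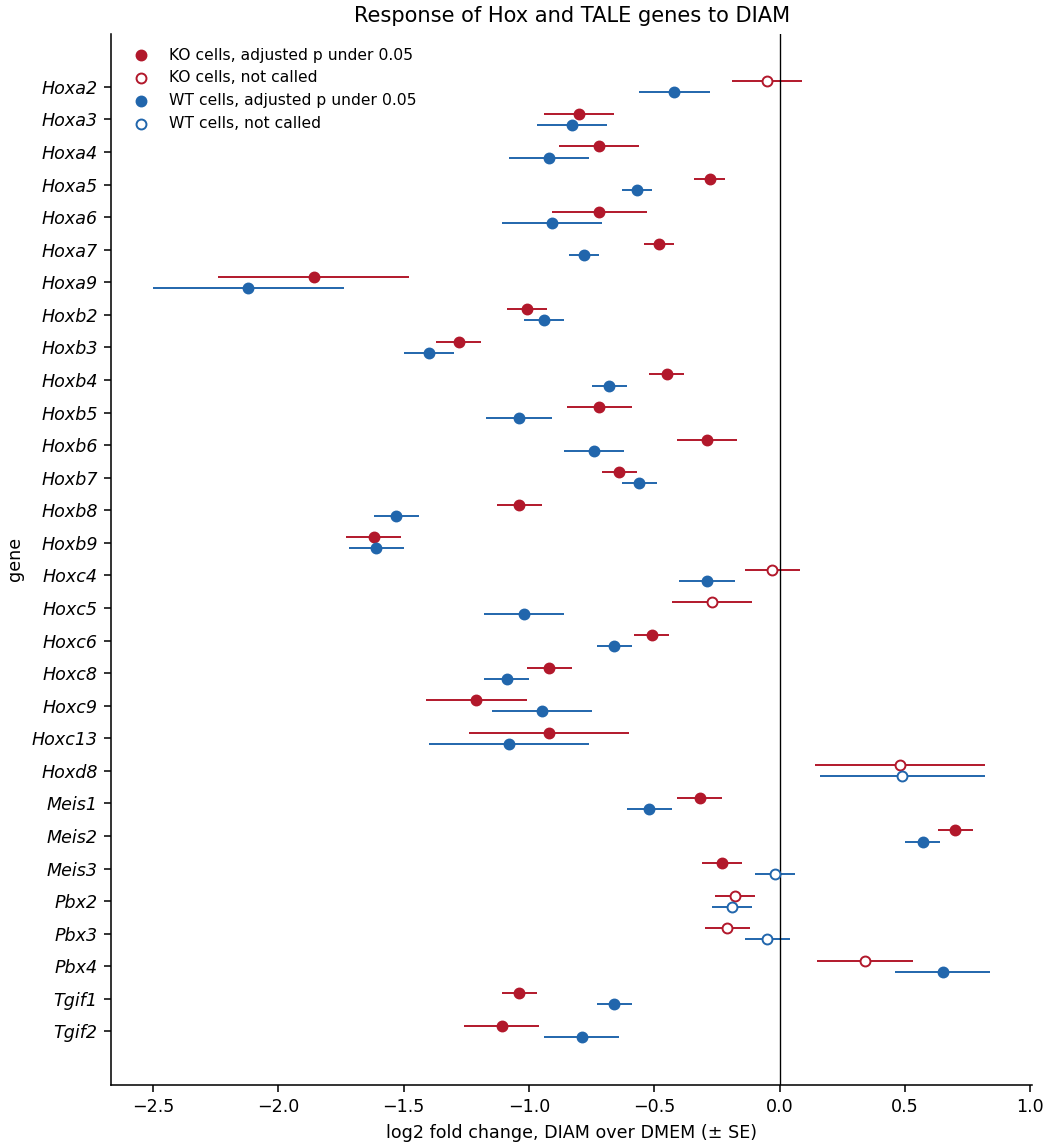
Log2 fold change of DIAM over DMEM (± SE) for 30 tested members in KO cells (red) and WT cells (blue); filled points passed the adjusted p of 0.05. All Hox points except Hoxd8 lie below 0, from -2.12 (Hoxa9, WT) upward, and Meis2 lies above 0 in both genotypes.

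The genes numbered 9 to 13 had the lowest median fold change. Hoxa9, which acts in blood progenitors and the lower trunk, dropped to low levels. Hoxa9 had 1.11, 1.36, 0.411 and 1.48 CPM in the KO DIAM libraries, against 2.46, 3.96, 4.79 and 4.77 CPM in the KO DMEM libraries. Hoxa9 in WT cells had 0.547, 1.87, 0.693 and 0.965 CPM in DIAM, against 4.70, 5.09, 4.97 and 3.17 CPM in DMEM. No DIAM library reached the lowest DMEM library, and Hoxa9 fell in KO cells (log2 fold change of -1.86 ± 0.38, adjusted p = 0.000498) and in WT cells (log2 fold change of -2.12 ± 0.38, adjusted p = 0.000195). In each genotype its DIAM libraries spread more than 3-fold, and counts per DIAM library were 15 to 79. Hoxb9, which patterns the ribs of the lower thorax, was among the most abundant Hox genes in DMEM. Hoxb9 had 12.4, 13.5, 15.6 and 11.8 CPM in the KO DIAM libraries, against 40.0, 37.3, 45.7 and 40.8 CPM in the KO DMEM libraries. Hoxb9 in WT cells had 18.2, 13.3, 15.4 and 13.3 CPM in DIAM, against 50.5, 46.1, 48.3 and 39.4 CPM in DMEM. Groups stood far apart, and Hoxb9 fell by similar amounts in KO cells (log2 fold change of -1.62 ± 0.11, adjusted p = 4.8e-09) and WT cells (log2 fold change of -1.61 ± 0.11, adjusted p = 5.8e-09). Hoxc9, which sets thoracic motor neuron identity, was a low-level gene. Hoxc9 had 1.53, 1.68, 1.42 and 1.48 CPM in the KO DIAM libraries, against 2.46, 4.37, 3.64 and 3.69 CPM in the KO DMEM libraries. Hoxc9 in WT cells had 1.75, 2.39, 1.62 and 1.39 CPM in DIAM, against 3.36, 3.18, 4.32 and 2.99 CPM in DMEM. No DIAM library reached a DMEM library, and Hoxc9 fell in KO cells (log2 fold change of -1.21 ± 0.20, adjusted p = 6.35e-05) and WT cells (log2 fold change of -0.95 ± 0.20, adjusted p = 0.000629). Hoxc13 averaged 1.32 ± 0.0599 CPM in KO DIAM cells against 2.50 ± 1.17 CPM in KO DMEM cells, and 1.18 ± 0.5001 CPM in WT DIAM cells against 2.48 ± 0.402 CPM in WT DMEM cells (SD, n = 4 each). Hoxc13 fell in WT cells (adjusted p = 0.00975), while in KO cells its call (adjusted p = 0.021) rested on KO DMEM replicate 1, the highest library at 4.06 CPM. Without that library the log2 fold change in KO cells was -0.58 and the adjusted p 0.115.

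Of the genes numbered 8, those of HOXB and HOXC fell. Hoxb8, which acts in myeloid progenitors and the spinal cord, had the smallest p of the members in WT cells. Hoxb8 had 15.9, 14.6, 14.02 and 14.3 CPM in the KO DIAM libraries, against 30.7, 28.3, 32.4 and 29.4 CPM in the KO DMEM libraries. Hoxb8 in WT cells had 9.58, 10.00, 11.1 and 12.7 CPM in DIAM, against 28.3, 33.9, 33.2 and 29.3 CPM in DMEM. Hoxb8 fell in KO cells (log2 fold change of -1.04 ± 0.09, adjusted p = 3.72e-08) and in WT cells (log2 fold change of -1.53 ± 0.09, adjusted p = 6.21e-10), and all 16 libraries kept the media apart. Hoxc8 was the second most abundant Hox gene per kb. Hoxc8 had 22.7, 26.1, 26.02 and 26.2 CPM in the KO DIAM libraries, against 44.2, 43.8, 53.6 and 50.0 CPM in the KO DMEM libraries. Hoxc8 in WT cells had 22.8, 20.4, 25.8 and 24.8 CPM in DIAM, against 48.7, 49.1, 57.2 and 45.0 CPM in DMEM. Its fall was close to 2-fold in KO cells (log2 fold change of -0.92 ± 0.09, adjusted p = 2.72e-07) and in WT cells (log2 fold change of -1.09 ± 0.09, adjusted p = 4.9e-08), with no overlap. Hoxd8 went with none of this: it averaged 1.12 ± 0.352 CPM in KO DIAM cells against 0.802 ± 0.383 CPM in KO DMEM cells, and 1.17 ± 0.389 against 0.830 ± 0.127 CPM in WT cells (SD, n = 4 each). Its groups overlapped and it passed no test (adjusted p = 0.231 in KO cells and 0.233 in WT cells).

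The abundant genes numbered 5 to 7 fell by less. Hoxc6 kept the highest level per kb in every group. Hoxc6 had 30.6, 34.7, 34.8 and 29.3 CPM in the KO DIAM libraries, against 45.9, 41.1, 48.9 and 48.3 CPM in the KO DMEM libraries. Hoxc6 in WT cells had 32.6, 27.9, 30.6 and 29.3 CPM in DIAM, against 45.8, 49.3, 49.5 and 46.1 CPM in DMEM. Hoxc6 fell in KO cells (log2 fold change of -0.51 ± 0.07, adjusted p = 1.3e-05) and in WT cells (log2 fold change of -0.66 ± 0.07, adjusted p = 9.32e-07), with all libraries of the media apart. Hoxa7, a trunk gene, had the highest level per kb among HOXA genes. Hoxa7 had 34.3, 34.8, 34.7 and 30.4 CPM in the KO DIAM libraries, against 47.7, 42.3, 49.6 and 47.3 CPM in the KO DMEM libraries. Hoxa7 in WT cells had 28.3, 27.7, 29.4 and 30.6 CPM in DIAM, against 46.9, 50.8, 50.1 and 50.7 CPM in DMEM. Hoxa7 fell in KO cells (log2 fold change of -0.48 ± 0.06, adjusted p = 3.61e-06) and in WT cells (log2 fold change of -0.78 ± 0.06, adjusted p = 1.72e-08), again with no overlap. Hoxb7, known from the ureteric bud, gave narrow groups. Hoxb7 had 13.8, 12.9, 13.6 and 11.7 CPM in the KO DIAM libraries, against 20.9, 20.2, 22.1 and 17.7 CPM in the KO DMEM libraries. Hoxb7 in WT cells had 13.4, 13.3, 15.2 and 13.7 CPM in DIAM, against 20.3, 20.1, 20.3 and 21.3 CPM in DMEM. It fell by like amounts in KO cells (log2 fold change of -0.64 ± 0.07, adjusted p = 1.8e-06) and WT cells (log2 fold change of -0.56 ± 0.07, adjusted p = 9.15e-06), with the media apart.

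Paralog group 5 and the number 6 genes varied more. Hoxa5, required for lung and neck development, was the abundant member. Hoxa5 had 24.2, 22.2, 21.6 and 22.8 CPM in the KO DIAM libraries, against 26.2, 26.6, 29.9 and 27.3 CPM in the KO DMEM libraries. Hoxa5 in WT cells had 19.1, 19.1, 21.5 and 19.3 CPM in DIAM, against 27.6, 30.9, 29.0 and 29.7 CPM in DMEM. Hoxa5 fell in KO cells (log2 fold change of -0.28 ± 0.06, adjusted p = 0.000936) and in WT cells (log2 fold change of -0.57 ± 0.06, adjusted p = 8.11e-07), with every DIAM library below every DMEM library. Hoxb5, which acts in neural crest and endothelial precursors, was lower. Hoxb5 had 6.13, 5.39, 4.90 and 5.48 CPM in the KO DIAM libraries, against 10.2, 7.94, 9.18 and 8.69 CPM in the KO DMEM libraries. Hoxb5 in WT cells had 4.73, 3.53, 5.11 and 4.99 CPM in DIAM, against 8.80, 11.3, 8.72 and 8.88 CPM in DMEM. Hoxb5 fell in KO cells (log2 fold change of -0.72 ± 0.13, adjusted p = 0.000154) and in WT cells (log2 fold change of -1.04 ± 0.13, adjusted p = 4.8e-06), with no overlap. Hoxc5 differed in its calls. Hoxc5 had 7.22, 7.41, 6.33 and 4.57 CPM in the KO DIAM libraries, against 8.88, 6.15, 7.69 and 8.05 CPM in the KO DMEM libraries. Hoxc5 in WT cells had 3.56, 4.00, 4.24 and 4.396 CPM in DIAM, against 8.40, 10.2, 7.73 and 6.68 CPM in DMEM. The KO groups overlapped and did not pass (adjusted p = 0.157), while the WT groups were apart and Hoxc5 fell there (log2 fold change of -1.02 ± 0.16, adjusted p = 6.04e-05). Hoxb6, a gene of the trunk mesoderm and ribs, also had overlapping KO groups. Hoxb6 had 22.4, 22.5, 19.9 and 20.8 CPM in the KO DIAM libraries, against 28.9, 20.4, 30.4 and 24.6 CPM in the KO DMEM libraries. Hoxb6 in WT cells had 15.7, 13.7, 18.4 and 17.8 CPM in DIAM, against 29.0, 29.1, 27.5 and 24.2 CPM in DMEM. It fell in WT cells with no overlap (log2 fold change of -0.74 ± 0.12, adjusted p = 5.41e-05), and its call in KO cells (adjusted p = 0.0425) was lost in 18 of 28 alternative settings, with an adjusted p of 0.157 without KO DMEM replicate 3 and 0.131 without KO DMEM replicate 1. Hoxa6 averaged 1.74 ± 0.221 CPM in KO DIAM cells against 2.87 ± 0.405 CPM in KO DMEM cells, and 1.4596 ± 0.412 against 2.75 ± 0.443 CPM in WT cells (SD, n = 4 each), and fell in both (adjusted p = 0.00429 and 0.000911).

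The anterior genes, numbered 1 to 4, fell as well, most of all Hoxb3 and Hoxb2. Hoxb3, a hindbrain gene also known from endothelial cells, showed no overlap. Hoxb3 had 11.5, 12.3, 15.97 and 12.1 CPM in the KO DIAM libraries, against 31.1, 31.5, 32.8 and 30.1 CPM in the KO DMEM libraries. Hoxb3 in WT cells had 10.3, 11.2, 11.9 and 11.8 CPM in DIAM, against 26.1, 31.9, 31.4 and 29.6 CPM in DMEM. Hoxb3 fell in KO cells (log2 fold change of -1.28 ± 0.09, adjusted p = 9.34e-09) and in WT cells (log2 fold change of -1.40 ± 0.10, adjusted p = 4.3e-09). Hoxb2, its neighbour in the cluster and a gene of facial motor neurons, moved likewise. Hoxb2 had 10.6, 10.2, 10.00 and 10.7 CPM in the KO DIAM libraries, against 21.9, 19.8, 23.7 and 18.2 CPM in the KO DMEM libraries. Hoxb2 in WT cells had 10.2, 10.8, 11.4 and 12.49 CPM in DIAM, against 21.5, 21.2, 22.7 and 21.1 CPM in DMEM. Hoxb2 fell in KO cells (log2 fold change of -1.01 ± 0.08, adjusted p = 2.47e-08) and in WT cells (log2 fold change of -0.94 ± 0.08, adjusted p = 6.46e-08), with the media apart. The library kit did not keep strand, and 63.9% of the exon bases of Hoxb3 and 58.5% of those of Hoxb2 are shared with the antisense gene Hoxb3os, so reads there cannot be assigned to one strand. Hoxb3os itself was at 1.897 ± 0.112 CPM in KO DIAM cells, 1.57 ± 0.155 in WT DIAM cells, 1.38 ± 0.207 in KO DMEM cells and 1.43 ± 0.386 in WT DMEM cells (SD, n = 4 each), and it rose in KO cells (adjusted p = 0.0472). Hoxa3, needed for the thymus and the carotid arteries, came next. Hoxa3 had 9.75, 11.9, 12.52 and 11.8 CPM in the KO DIAM libraries, against 22.3, 17.0, 24.9 and 16.1 CPM in the KO DMEM libraries. Hoxa3 in WT cells had 9.93, 9.76, 12.9 and 13.6 CPM in DIAM, against 20.4, 19.3, 21.5 and 20.9 CPM in DMEM. Hoxa3 fell in KO cells (log2 fold change of -0.80 ± 0.14, adjusted p = 0.000113) and in WT cells (log2 fold change of -0.83 ± 0.14, adjusted p = 9.84e-05), with the DIAM libraries all lower.

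The number 4 genes fell by different amounts. Hoxb4, known for expanding blood stem cells, had tight groups. Hoxb4 had 13.5, 12.4, 14.1 and 12.52 CPM in the KO DIAM libraries, against 17.2, 18.0, 18.2 and 18.3 CPM in the KO DMEM libraries. Hoxb4 in WT cells had 10.4, 11.0, 12.7 and 11.7 CPM in DIAM, against 18.5, 16.9, 18.8 and 18.9 CPM in DMEM. Hoxb4 fell in KO cells (log2 fold change of -0.45 ± 0.07, adjusted p = 4.06e-05) and in WT cells (log2 fold change of -0.68 ± 0.07, adjusted p = 6.17e-07), with no overlap. Hoxa4, a neck patterning gene, was less abundant. Hoxa4 had 3.57, 3.31, 3.75 and 3.98 CPM in the KO DIAM libraries, against 6.60, 5.30, 6.15 and 6.03 CPM in the KO DMEM libraries. Hoxa4 in WT cells had 2.98, 2.13, 3.82 and 4.15 CPM in DIAM, against 6.11, 6.30, 6.05 and 6.33 CPM in DMEM. Hoxa4 fell in KO cells (log2 fold change of -0.72 ± 0.16, adjusted p = 0.000885) and in WT cells (log2 fold change of -0.92 ± 0.16, adjusted p = 0.000123), with no overlap. Hoxc4 was nearly level in KO cells, at 8.75 ± 0.977 CPM in DIAM against 8.94 ± 1.04 CPM in DMEM (SD, n = 4 each, adjusted p = 0.81). In WT cells Hoxc4 averaged 7.33 ± 0.800 CPM in DIAM against 8.98 ± 0.626 CPM in DMEM and passed (adjusted p = 0.0308), a call lost without WT DIAM replicate 1 (0.0896), WT DIAM replicate 2 (0.0841) or WT DMEM replicate 2 (0.0932). Hoxa2, which gives the second pharyngeal arch its identity, averaged 4.06 ± 0.345 CPM in KO DIAM cells against 4.20 ± 0.424 CPM in KO DMEM cells (adjusted p = 0.776). In WT cells Hoxa2 averaged 3.26 ± 0.4997 CPM in DIAM against 4.35 ± 0.567 CPM in DMEM and fell (adjusted p = 0.0163), but not without WT DIAM replicate 1 (0.0525) or WT DMEM replicate 3 (0.0556).

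**Figure D4:**
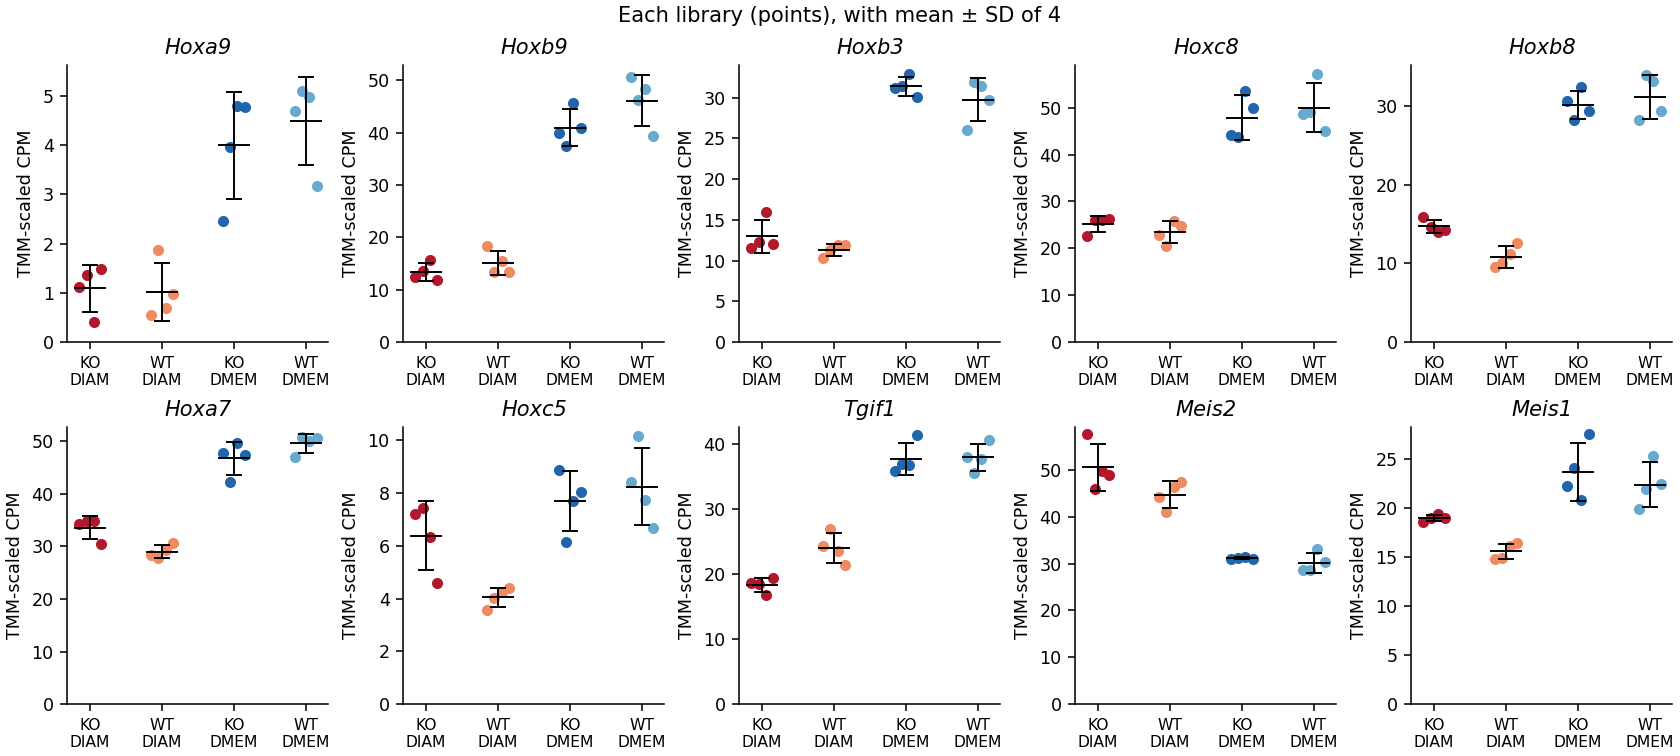
Level of 10 members (TMM-scaled CPM, axis from 0) in each library of the 4 groups, with the mean and SD of 4. The media are fully apart for Hoxa9, Hoxb9, Hoxb3, Hoxc8, Hoxb8, Hoxa7, Tgif1, Meis2 and Meis1, with Meis2 higher in DIAM. In DIAM the KO and WT points of Hoxb8, Hoxc5, Tgif1 and Meis1 do not overlap, and Meis1 did not pass the test between genotypes.

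The cofactors did not follow one direction. Meis2, a TALE activator that acts in neural crest and heart development, rose while most Hox genes fell. Meis2 had 57.6, 45.9, 49.7 and 48.9 CPM in the KO DIAM libraries, against 31.0, 31.2, 31.4 and 30.9 CPM in the KO DMEM libraries. Meis2 in WT cells had 44.1, 40.9, 46.4 and 47.4 CPM in DIAM, against 28.6, 28.6, 33.1 and 30.2 CPM in DMEM. Every DIAM library exceeded every DMEM library, and Meis2 rose in KO cells (log2 fold change of 0.70 ± 0.07, adjusted p = 3.03e-07) and in WT cells (log2 fold change of 0.57 ± 0.07, adjusted p = 3.91e-06). Meis1, its paralog in heart and blood stem cells, moved the other way. Meis1 had 18.5, 19.0, 19.3 and 19.0 CPM in the KO DIAM libraries, against 22.2, 24.1, 20.7 and 27.5 CPM in the KO DMEM libraries. Meis1 in WT cells had 14.8, 14.9, 16.1 and 16.4 CPM in DIAM, against 19.8, 21.9, 25.3 and 22.4 CPM in DMEM. Meis1 fell in KO cells (log2 fold change of -0.32 ± 0.09, adjusted p = 0.00413) and in WT cells (log2 fold change of -0.52 ± 0.09, adjusted p = 7.87e-05), with no overlap between media. Meis3, a hindbrain and gut gene, was nearly level. Meis3 had 17.0, 18.2, 18.1 and 17.8 CPM in the KO DIAM libraries, against 20.95, 21.2, 21.7 and 19.4 CPM in the KO DMEM libraries. Meis3 in WT cells had 17.8, 21.2, 18.6 and 20.7 CPM in DIAM, against 16.9, 22.6, 19.5 and 20.7 CPM in DMEM. The WT groups overlapped (adjusted p = 0.83), and Meis3 fell in KO cells by a small amount (log2 fold change of -0.23 ± 0.08, adjusted p = 0.0241). That call was lost without KO DIAM replicate 1 (0.0625) or KO DMEM replicate 3 (0.0575). Per kb, Meis2 stood at 11.6 ± 1.15 and Meis3 at 9.40 ± 0.290 CPM per kb in KO DIAM cells, while in WT DIAM cells the levels of Meis2 (10.3 ± 0.665 CPM per kb) and Meis3 (10.4 ± 0.859 CPM per kb) did not differ beyond their spread. In DMEM Meis3 had the higher level, 11.0 ± 0.516 CPM per kb in KO cells and 10.5 ± 1.27 in WT cells, against 7.16 ± 0.0482 and 6.93 ± 0.488 CPM per kb for Meis2 (SD, n = 4 each).

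Pbx2, a broadly expressed Hox partner, had overlapping groups. Pbx2 had 22.7, 20.2, 21.6 and 26.1 CPM in the KO DIAM libraries, against 26.7, 24.7, 23.6 and 27.7 CPM in the KO DMEM libraries. Pbx2 in WT cells had 20.7, 24.1, 20.9 and 22.7 CPM in DIAM, against 24.0, 24.6, 27.7 and 24.6 CPM in DMEM. Pbx2 passed in neither genotype (adjusted p = 0.068 in KO cells and 0.0594 in WT cells). Pbx3 is a paralog with roles in the nervous system. Pbx3 had 9.96, 10.3, 10.5 and 8.99 CPM in the KO DIAM libraries, against 10.2, 11.7, 11.7 and 12.3 CPM in the KO DMEM libraries. Pbx3 in WT cells had 8.65, 10.4, 8.91 and 10.7 CPM in DIAM, against 9.58, 9.71, 10.9 and 9.75 CPM in DMEM. Pbx3 passed in neither genotype (adjusted p = 0.0547 and 0.68). Pbx4, known from the testis, was at the edge of the filter. Pbx4 had 1.32, 1.07, 1.01 and 1.20 CPM in the KO DIAM libraries, against 0.707, 1.16, 1.00 and 0.766 CPM in the KO DMEM libraries. Pbx4 in WT cells had 1.31, 1.09, 1.4631 and 1.07 CPM in DIAM, against 0.787, 0.852, 0.741 and 0.767 CPM in DMEM. The KO groups overlapped (adjusted p = 0.145), while in WT cells Pbx4 rose (log2 fold change of 0.65 ± 0.19, adjusted p = 0.00993) at 31 to 57 counts per library.

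Both Tgif repressors fell. Tgif1, whose human counterpart is mutated in holoprosencephaly, is a corepressor of SMAD and retinoid receptors. Tgif1 had 18.6, 18.5, 16.8 and 19.4 CPM in the KO DIAM libraries, against 35.8, 36.9, 36.7 and 41.4 CPM in the KO DMEM libraries. Tgif1 in WT cells had 24.3, 27.0, 23.5 and 21.3 CPM in DIAM, against 38.0, 35.6, 37.8 and 40.6 CPM in DMEM. Tgif1 fell in KO cells (log2 fold change of -1.04 ± 0.07, adjusted p = 5.01e-09) and in WT cells (log2 fold change of -0.66 ± 0.07, adjusted p = 1.1e-06), with the media fully apart. Tgif2, its paralog with overlapping function, was less abundant. Tgif2 had 3.21, 2.89, 2.85 and 2.91 CPM in the KO DIAM libraries, against 6.50, 5.12, 6.59 and 7.45 CPM in the KO DMEM libraries. Tgif2 in WT cells had 3.88, 4.76, 3.41 and 3.16 CPM in DIAM, against 6.74, 5.30, 7.34 and 6.88 CPM in DMEM. Tgif2 fell in KO cells (log2 fold change of -1.11 ± 0.15, adjusted p = 7.61e-06) and in WT cells (log2 fold change of -0.79 ± 0.15, adjusted p = 0.00026), with no overlap between media. A gene on the opposite strand shares 31.2% of the Tgif2 exon bases, and reads there cannot be assigned to one strand. The TALE median log2 fold change was -0.23 in KO cells and -0.19 in WT cells.

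Between genotypes the positional set differed little, and only in DIAM did any member pass. In DIAM 3 of 32 members were higher in KO than in WT cells (3.43% of all genes tested were) and 1 was lower (4.95% of all genes were). Hoxb8 was higher in KO cells, at 15.9, 14.6, 14.02 and 14.3 CPM in KO DIAM libraries against 9.58, 10.00, 11.1 and 12.7 CPM in WT DIAM libraries (log2 fold change of 0.44 ± 0.09, adjusted p = 0.0123), with no overlap. Hoxc5 was higher, at 7.22, 7.41, 6.33 and 4.57 CPM in KO DIAM libraries against 3.56, 4.00, 4.24 and 4.396 CPM in WT DIAM libraries (log2 fold change of 0.66 ± 0.16, adjusted p = 0.0263). The lowest KO library lay just above the highest WT library, and the call was lost without KO DIAM replicate 1 (0.0792), KO DIAM replicate 2 (0.0945), WT DIAM replicate 1 (0.0800) or WT DIAM replicate 2 (0.0769). Hoxa7 was higher by a small amount, at 34.3, 34.8, 34.7 and 30.4 CPM in KO DIAM libraries against 28.3, 27.7, 29.4 and 30.6 CPM in WT DIAM libraries (log2 fold change of 0.21 ± 0.06, adjusted p = 0.0403). Its groups overlapped by 1 library, and leaving out any one of replicates 1, 2 or 3 of either DIAM group ended the call, with an adjusted p of 0.0523 to 0.120. Tgif1 was lower, at 18.6, 18.5, 16.8 and 19.4 CPM in KO DIAM libraries against 24.3, 27.0, 23.5 and 21.3 CPM in WT DIAM libraries (log2 fold change of -0.39 ± 0.07, adjusted p = 0.012), with no overlap. All 4 calls were lost when the KO and WT DIAM libraries were fitted without the DMEM groups (adjusted p = 0.0655 for Hoxb8 and Tgif1, 0.0696 for Hoxc5 and 0.0844 for Hoxa7). Hoxa2, Hoxa5, Hoxb6 and Meis1 had no overlap and missed the threshold by edgeR (log2 fold changes 0.32 ± 0.14, 0.20 ± 0.06, 0.38 ± 0.12 and 0.29 ± 0.09, adjusted p = 0.158, 0.0508, 0.0541 and 0.0515). DESeq2 called Hoxa5, Hoxb6 and Meis1 as well, but not Hoxa2. In the authors' deposited table Hoxb6 (adjusted p = 0.00957) and Meis1 (0.00328) passed, and Hoxa2 (0.2) and Hoxa5 (0.057) did not. The share of all genes with no overlap between genotypes was not counted.

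In DMEM no member passed between KO and WT cells, nor did any of the 14217 genes by edgeR (0% called), and 1 of 32 members, Pbx3, had an unadjusted p under 0.05, as did 438 of the 14217 genes. DESeq2 called 1 gene there, no member, and limma on log2(CPM + 1) called no member. Member log2 fold changes lay between -0.17 and 0.21, with SE of 0.06 to 0.35. The interaction, which tests whether the DIAM response differed between genotypes, called no gene either (0% called), while 7 of 32 members and 2255 of the 14217 genes had an unadjusted p under 0.05. Over all genes DESeq2 called 97 with a positive and 128 with a negative interaction. Of the members it called 2 (Hoxb8, adjusted p = 0.0257, and Tgif1, adjusted p = 0.0448), limma on log2(CPM + 1) called none, and the authors' deposited table has an adjusted p of 0.025 for Hoxb8. In 17 of 23 Hox genes the log2 fold change in DIAM was lower in WT than in KO cells. These genes were measured in the same libraries, and the share of all genes with that order was not counted. The number is therefore a description and no test of a difference in response. By edgeR, then, the larger Hoxb8 fall in WT cells did not pass as a difference in response (difference 0.49 ± 0.12, adjusted p = 0.176), nor did that of Hoxc5 (0.76 ± 0.23, adjusted p = 0.181) or the larger Tgif1 fall in KO cells (-0.38 ± 0.10, adjusted p = 0.176).

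**Figure D5:**
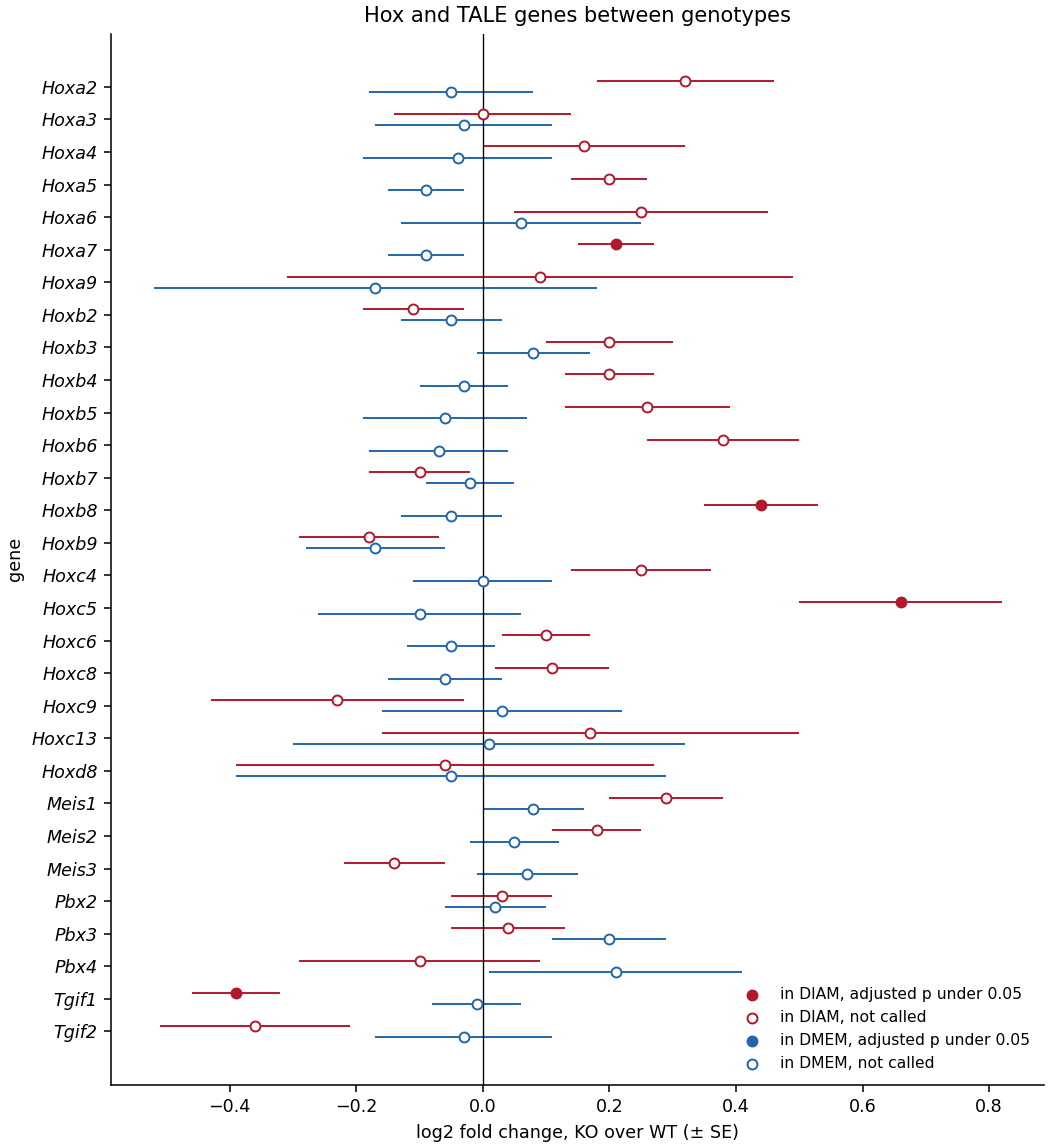
Log2 fold change of KO over WT (± SE) for 30 tested members in DIAM (red) and in DMEM (blue); filled points passed the adjusted p of 0.05. The 4 filled points, all in DIAM, are Hoxa7, Hoxb8 and Hoxc5 above 0 and Tgif1 below 0, and the DMEM points lie between -0.17 and 0.21.

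Most noncoding transcripts of the Hox clusters were lower in DIAM as well. Of 5 tested noncoding and antisense RNAs, 4 fell and 1 rose in KO cells, and 3 fell and none rose in WT cells (median log2 fold change -1.49 and -0.98). Hoxb5os, antisense in the HOXB cluster, averaged 2.53 ± 0.188 CPM in KO DIAM cells and 2.26 ± 0.201 CPM in WT DIAM cells, against 9.48 ± 1.96 CPM in KO DMEM cells and 9.92 ± 1.60 CPM in WT DMEM cells (SD, n = 4 each; adjusted p = 2.82e-08 in KO and 1.05e-08 in WT cells). Hotairm1, in the HOXA cluster, averaged 2.77 ± 0.406 CPM in KO DIAM cells and 2.65 ± 0.634 CPM in WT DIAM cells, against 5.23 ± 0.343 CPM in KO DMEM cells and 5.28 ± 1.07 CPM in WT DMEM cells, and fell in both. Hoxaas2, of the same cluster, fell in both as well (log2 fold change of -1.49 in KO cells and -0.98 in WT cells). Without strand these cannot be separated from sense reads of the coding genes they overlap.

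Genes that set or hold the Hox code gave mixed counts. Beside these lists and those that follow, 29.8% of all genes tested rose and 30.8% fell in KO cells, and 27.6% rose and 27.5% fell in WT cells. Of 25 Trithorax and Polycomb genes, which keep Hox genes on or off, 8 rose and 5 fell in KO cells, and 5 rose and 6 fell in WT cells. Ezh1, a Polycomb histone methyltransferase, rose (log2 fold change 0.95 ± 0.06 in KO cells and 0.77 ± 0.06 in WT cells), and the Polycomb subunits Cbx6 (-0.38 in KO cells and -0.65 in WT cells) and Pcgf2 (-0.42 in KO cells and -0.46 in WT cells) fell. Another list held 14 tested genes upstream of Hox genes, namely genes of retinoic acid signalling and the ligand gene Gdf11. Of these 14, 4 rose and 6 fell in KO cells, and 5 rose and 6 fell in WT cells, with Gdf11 among those that fell in each genotype. Aldh1a2, the main retinoic acid synthesizing enzyme of the embryo, fell to 12.96 CPM in KO DIAM cells and 17.1 CPM in WT DIAM cells, against 181 CPM in KO DMEM cells and 199 CPM in WT DMEM cells. Its paralog Aldh1a1 rose (log2 fold change 2.81 in KO cells and 2.67 in WT cells), and Dhrs3, a retinaldehyde reductase, fell (-0.83 and -0.95). Of 10 partners and regulators of Hox cofactors, 6 rose and 2 fell in KO cells, and 4 rose and 2 fell in WT cells. Hipk2, a kinase that binds homeodomain proteins, rose in both (log2 fold change of 1.84 ± 0.09 in KO cells and 1.5 ± 0.09 in WT cells), and Pbxip1, a Pbx-binding protein, fell (-0.69 and -0.79), as did Hmgb1 (-0.43 and -0.40).

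Other positional transcription factors of mesenchyme moved both ways, 6 rising and 13 falling of 26 in KO cells, and 6 rising and 10 falling in WT cells. Hand2, a factor of the heart and limb field, rose (log2 fold change 4.00 ± 0.25 in KO cells and 3.77 ± 0.24 in WT cells). Foxf1, a factor of visceral mesoderm, fell (-2.79 and -2.38), and Prrx2, a limb and face mesenchyme factor, fell (-0.97 and -1.18). Of 6 other TALE homeobox genes, 2 fell in KO cells and none rose, and none passed in WT cells. The 2 were Mkx, a tendon factor (adjusted p = 0.00291), and Irx3 (adjusted p = 0.0459).

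Markers of other cell types moved with the media as well, and their part in the Hox and TALE results was not tested. Of 10 smooth muscle markers 2 rose and 4 fell in KO cells, and 1 rose and 4 fell in WT cells, and their sum was 1325 to 2287 CPM in KO DIAM and 1168 to 1895 CPM in WT DIAM libraries, against 2465 to 4169 CPM in KO DMEM and 3085 to 3990.1 CPM in WT DMEM libraries. Of 10 fibroblast markers 8 rose and 2 fell in each genotype, with sums of 3576 to 3888 CPM in KO DIAM and 3534 to 3921 CPM in WT DIAM libraries, against 2023 to 2228 CPM in KO DMEM and 1999 to 2311 CPM in WT DMEM libraries. Of 6 listed adipocyte markers 4 had a row, and all 4 rose in each genotype. Their sum was 1893 to 2827 CPM in KO DIAM and 1305 to 2027 CPM in WT DIAM libraries. In DMEM it was 55.0 to 95.4 CPM in KO and 72.8 to 89.9 CPM in WT libraries. Of 10 endothelial markers 6 rose and 2 fell in KO cells, and 5 rose and 1 fell in WT cells, and their sum reached at most 145 CPM. Of 9 leukocyte markers 4 fell in KO cells, and 2 rose and 1 fell in WT cells. Their sum was 1209.5 to 1590.2 CPM in KO DIAM and 961.42 to 1669.9 CPM in WT DIAM libraries. In DMEM the leukocyte sum was 1169.9 to 2526.7 CPM in KO and 884.77 to 1905.3 CPM in WT libraries. These ranges overlapped those of the smooth muscle sum in every group but WT DMEM, and the share of each cell type was not tested. Of 8 mesothelial markers 2 rose in each genotype. The mesothelial sum reached 613.46 CPM in KO DIAM, 290.25 CPM in WT DIAM, 265.78 CPM in KO DMEM and 141.22 CPM in WT DMEM libraries at most. Of 2 heart and skeletal muscle markers 1 rose and 1 fell in each genotype. Of the 7 tested Schwann cell and neuronal markers 2 rose and 2 fell in KO cells, and 5 rose and 2 fell in WT cells. Between genotypes in DIAM, where the Hoxb8, Hoxc5, Hoxa7 and Tgif1 differences were called, 1 of the 7, Tubb3, was called lower in KO cells, and the sum of all 10 was 60.8 to 195 CPM in KO DIAM libraries, against 297 to 691 CPM in WT DIAM libraries. In the same comparison 1 endothelial marker, Emcn, was lower and 1 adipocyte marker, Plin1, higher in KO cells. No listed marker with a row was at 0 in all 16 libraries.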

How the data were processed

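Total RNA of 16 cultures was sequenced after rRNA depletion with an unstranded TruSeq kit, per the labels' protocols. The deposited table gives one value per gene and library. The labels call these TPM, but the sums per library differ (37221313 to 47626242), so they were read as the deposited estimated counts (Salmon 1.9.0 is named in the submitters' processing notes, as are DESeq2 1.46.0, R 4.4.2 and GRCm39). The authors' deposited table also holds log2 fold changes and p-values, used here as an alternative, and a mean normalized signal (coverage level) per gene, used only to check the unit. Which step each tool served is not stated there.

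Counts were rounded, and 14217 genes with at least 1 CPM in at least 4 libraries were fitted in edgeR 4.0.16 (R 4.3.3; TMM scaling, robust quasi-likelihood test, 1 model of 4 groups, 12 residual degrees of freedom), with Benjamini-Hochberg adjustment over all genes and calls at an adjusted p under 0.05. Errors of fold changes are the fold change divided by the root of the F statistic. The pipeline was tested on simulated counts. Exon lengths and shared exons came from GENCODE M21 (GRCm38), so coordinates are given for promoter windows alone, and promoter sequences came from RefSeq (GRCm38.p6). Over 10% of the exon bases of 9 members are shared with another gene. Alternatives used DESeq2 1.42.0, limma 3.58.1 on log2(CPM + 0.1, 1 or 5), other filters and scalings, replicate blocks and each library left out. Values in every library are given for the 20 tested members of smallest p in a medium comparison or called between genotypes, and for the TALE genes. Of the tested members 2 are counted but not reported singly here. From other lists up to 3 called genes of smallest p in WT cells are named. Hoxb3os, Acta2, Gdf11, Mkx, Irx3 and Arg1 were picked for naming after seeing their values, as were Tubb3, Emcn and Plin1. The members and gene lists were chosen with earlier results of these data known.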

Additional observations from a re-analysis of the deposited data

Results flagged for a closer look

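In 9 of 120 groups of 4 libraries (30 members in 4 groups) 1 library stood apart from the other 3 by Dixon's criterion, which flags about 1 group in 20 by chance. In KO DIAM cells Hoxa7 was low in replicate 4 (30.4 CPM, the others 34.3 to 34.8) and Hoxc8 was low in replicate 1 (22.7 CPM, the others 26.02 to 26.2). In WT DIAM cells Hoxa2 was low in replicate 1 (2.52 CPM, the others 3.41 to 3.59) and Hoxa5 was high in replicate 3 (21.5 CPM, the others 19.1 to 19.3). In WT DMEM cells Hoxb5 was high in replicate 2 (11.3 CPM, the others 8.72 to 8.88), Hoxc13 in replicate 1 (3.08 CPM, the others 2.23 to 2.31) and Hoxd8 in replicate 1 (1.02 CPM, the others 0.742 to 0.783). In the same group Pbx2 was high in replicate 3 (27.7 CPM, the others 24.0 to 24.6), as was Pbx3 (10.9 CPM, the others 9.58 to 9.75).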

How the results depend on the processing

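No member's called fold change turned its sign under any alternative run. The number of members called in DIAM against DMEM stayed within 1.5 times the reported 25 in KO cells and 28 in WT cells under every alternative run. The 4 member calls between KO and WT in DIAM became 7 with DESeq2, limma on log2(CPM + 1), a filter at 5 CPM or quantile normalization (added after seeing the data), and 0 when only those 2 groups were fitted. Over all genes edgeR called 487 higher and 704 lower in KO cells there. DESeq2 called 859 and 1014, and quantile normalization 618 and 778, so calls rose beyond the members too. With each library left out in turn there were 2 to 7 member calls: 2 without replicate 1 or 2 of either DIAM group, and 7 without KO DMEM replicate 3. The interaction had 0 calls, 2 with DESeq2 and 1 in the authors' deposited table, and the cause of these changes was not tested. Other scalings moved the median of all genes by at most 0.07 (log2).

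Same-numbered libraries did not deviate together throughout (correlations of 0.012 to 0.319 between the KO media and -0.094 to 0.267 between the WT media). KO DIAM replicates 1 and 4 and WT DIAM replicates 1, 3 and 4 correlated most with the same-numbered DMEM library, and the other DIAM replicates did not. Since the match did not hold throughout, the numbers were not taken as pairs. With a replicate block shared by all groups, 24 members were called in KO cells, 27 in WT cells, 4 between genotypes in DIAM, 0 in DMEM and 0 in the interaction, and with the replicate block within genotype 25, 28 and 0 for the media and the interaction. With the block within genotype Pbx2 was called lower in DIAM in KO cells (adjusted p = 0.0409) and in WT cells (0.0374), and Hoxb6 was no longer called in KO cells (0.0890). Depth limits the 5 untested members and the genes near 1 CPM, such as Hoxa9 in DIAM, Hoxd8 and Pbx4.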
